A study of Mus musculus with 40 samples.

Results

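Trbv12-1, Trbv12-2, Trbv13-1, Trbv13-2 and Trbv13-3 are variable (V) segments of the mouse T cell receptor beta locus that arose by repeated duplication of a Trbv12 and Trbv13 unit. They were taken by name, as the 5 Trbv12 and Trbv13 rows among the 22 Trbv segments listed in the deposited tables, with all 11 Trbj columns. The 4 libraries used were 2 from EACBE-/- thymocytes and 2 from EACBE+/+ (wild-type) thymocytes, out of 40 samples of the series. All 4 came from thymus of C57BL/6 mice aged 4 to 8 weeks, with no further allele named. The anti-CD3 injection in the labels' protocols is described for Rag-deficient mice, which the labels of these libraries do not name. EACBE is the name in the labels for the CTCF binding site at Ea, the enhancer of the T cell receptor alpha locus, and the series asks for its role in Tcra rearrangement. The beta locus lies on another chromosome. The series text calls the samples duplicates, and the labels do not say that they came from separate mice. The p-values below therefore do not measure a spread between mice. The fits of Trbj use within a segment, against the other segments and between segments each share 1 spread over all their tests. Their p-values do not measure how far 1 pair varies between libraries.

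A beta chain gene is assembled in immature thymocytes in steps, first by joining a Trbd to a Trbj segment and then by joining a Trbv segment to that DJ unit. The Trbj segments lie in a pair of clusters, Trbj1 and Trbj2, each behind its own Trbd segment, and in each cell the joined V segment supplies most of the variable part of the beta chain. Because the V segment also carries loops that touch the peptide-MHC ligand and bacterial or viral superantigens, the use of a V family in the thymus is a standard readout of the beta repertoire. In the older naming, Trbv12 segments encode the Vbeta5 family and Trbv13 segments the Vbeta8 family.

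In the RefSeq annotation of GRCm38.p6, the assembly behind the mm10 build named for the series, the members alternate over 17019 bases of chromosome 6. Trbv12-1 lies at chr6:41113567-41114067, Trbv13-1 at chr6:41116036-41116468, Trbv12-2 at chr6:41118864-41119364, Trbv13-2 at chr6:41121396-41121832 and Trbv13-3 at chr6:41130147-41130585. The remaining Trbv12 segment, Trbv12-3 at chr6:41127592-41128076, is annotated as a pseudogene and is not listed in the tables. Each Trbv12 segment thus stands just before a Trbv13 segment, and 402615 bases separate the end of Trbv13-3 from Trbd1, the first D segment. These intervals cover the annotated V segments, which are the units joined to Trbd and Trbj.

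Receptor transcripts were copied by 5′ RACE with template switching, which adds one adapter to the 5′ end of every cDNA and needs no V-specific primer. The authors deposited whole-number counts for each Trbv and Trbj pair. The table totals were 20678 in EACBE-/- replicate 1, 443589 in EACBE-/- replicate 2, 11412 in EACBE+/+ replicate 1 and 418135 in EACBE+/+ replicate 2, so that replicate 2 was 21.5 times as deep as replicate 1 in EACBE-/- and 36.6 times in EACBE+/+. Replicate 2 values therefore have much smaller counting errors, and any result that differs between replicates also differs with depth. Trbv31 is listed in the replicate 1 tables only, with 4.26% of EACBE-/- and 4.85% of EACBE+/+ counts, and 21 Trbv segments are listed in all 4. Every member is among these 21 and passed the filter on low counts with each of its 11 Trbj segments. A share of counts below is the percentage of the table total, which includes Trbv31 in replicate 1 only. Replicate 1 shares are thus lower than over the 21 segments listed in all 4 (totals of 19798 in EACBE-/- and 10859 in EACBE+/+). Counting intervals are 95% Wilson intervals, which cover counting error only. The tables hold receptor segments only, so markers of the labelled cell type were not analysed here. In such bulk RNA, fewer cells with a joined segment and less receptor RNA per cell cannot be told apart.

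Together the Trbv12 and Trbv13 segments made up about the same share of beta transcripts in EACBE-/- and EACBE+/+ thymocytes. The 5 segments held 32.2% and 34.0% of counts in EACBE-/- replicates 1 and 2, against 33.8% and 33.6% in EACBE+/+ replicates 1 and 2. The means were 33.1% ± 1.30 in EACBE-/- and 33.7% ± 0.131 in EACBE+/+ (SD, n = 2 each), a difference of -0.606 percentage points. On table totals the EACBE-/- libraries lay on both sides of the EACBE+/+ libraries, and without EACBE-/- replicate 1 the difference was 0.313 points. Over the 21 segments listed in all 4 libraries, EACBE+/+ replicate 1 stood highest instead (3854 of 10859 counts), and the genotypes still overlapped. The 2 Trbv12 segments held 11.9% and 10.7% in EACBE-/- libraries, against 12.7% and 10.2% in EACBE+/+ libraries. The 3 Trbv13 segments held 20.2% and 23.3% in EACBE-/- libraries, against 21.1% and 23.4% in EACBE+/+ libraries. Within each genotype the deeper replicate had the smaller Trbv12 share and the larger Trbv13 share.

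**Figure D1:**
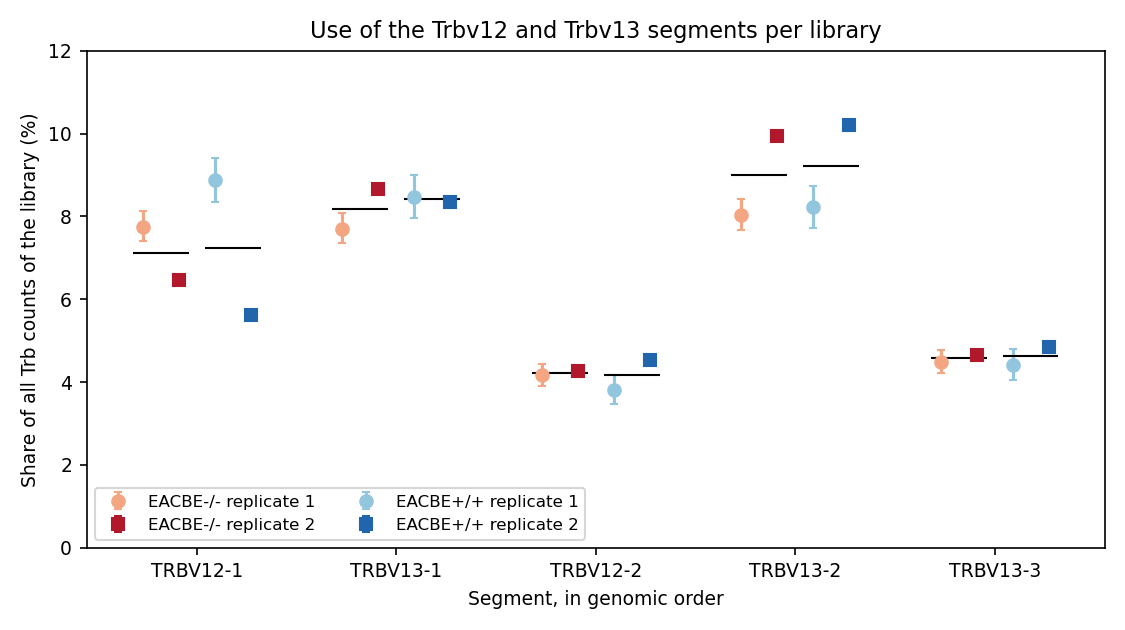
Share of all Trb counts of a library (y axis, %) held by each Trbv12 and Trbv13 segment (x axis, in genomic order), for each of the 4 libraries, with EACBE-/- in red and EACBE+/+ in blue. Circles are replicate 1 and squares replicate 2, error bars are 95% Wilson intervals and horizontal lines are genotype means; the red and blue points overlap for every segment, while TRBV12-1 and TRBV13-2 differ between replicates.

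On table totals, Trbv12-1, the first V segment of the cluster, was the member whose share differed most between replicates in EACBE+/+, and Trbv13-2 the one in EACBE-/-. Trbv12-1 held 7.76% of counts in EACBE-/- replicate 1 and 6.47% in EACBE-/- replicate 2, against 8.87% in EACBE+/+ replicate 1 and 5.62% in EACBE+/+ replicate 2. Both EACBE-/- values lay between the EACBE+/+ values. The means were 7.11% ± 0.912 in EACBE-/- and 7.25% ± 2.29 in EACBE+/+ (SD, n = 2 each). Among the 21 segments, Trbv12-1 ranked 3 and 6 in EACBE-/- replicates 1 and 2, and 1 and 8 in EACBE+/+ replicates 1 and 2. Set replicate against replicate, EACBE-/- minus EACBE+/+ was -1.11 percentage points in replicate 1 and 0.844 points in replicate 2, so the direction was not the same in both.

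Trbv12-2, which encodes the other functional Vbeta5 chain, was the least used member in every library. Its share was 4.16% and 4.27% in EACBE-/- libraries, against 3.80% and 4.55% in EACBE+/+ libraries (replicates 1 and 2 in each). The EACBE-/- libraries again lay inside the EACBE+/+ range. Its means were 4.22% ± 0.0739 in EACBE-/- and 4.17% ± 0.525 in EACBE+/+ (SD, n = 2 each). The count ratio of Trbv12-1 to Trbv12-2 was 1.86 and 1.52 in EACBE-/- libraries, against 2.33 and 1.24 in EACBE+/+ libraries, so Trbv12-1 exceeded its copy in all 4 libraries by a factor that varied more between replicates than between genotype means (1.69 in EACBE-/- and 1.78 in EACBE+/+).

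Among the Vbeta8 segments, Trbv13-1 held 7.71% and 8.65% of counts in EACBE-/- libraries, against 8.46% and 8.36% in EACBE+/+ libraries. On table totals the EACBE-/- libraries enclosed the EACBE+/+ libraries here, with means of 8.18% ± 0.668 in EACBE-/- and 8.41% ± 0.0768 in EACBE+/+ (SD, n = 2 each). Over the 21 segments listed in all 4 libraries, EACBE+/+ replicate 1 stood highest instead (966 of 10859 counts, against 38387 of 443589 in EACBE-/- replicate 2). Trbv13-2, the V segment found most often in the receptors of mouse invariant natural killer T cells, held 8.04% and 9.95% in EACBE-/- libraries, against 8.22% and 10.2% in EACBE+/+ libraries. For Trbv13-2, replicate 1 minus replicate 2 was -1.91 points in EACBE-/- and -1.98 points in EACBE+/+, whereas EACBE-/- minus EACBE+/+ was only -0.182 points in replicate 1 and -0.257 points in replicate 2. Trbv13-3, whose chain is known for its response to the mouse superantigen Mls-1a, held 4.49% and 4.66% in EACBE-/- libraries, against 4.42% and 4.86% in EACBE+/+ libraries. Its means were 4.57% ± 0.119 in EACBE-/- and 4.64% ± 0.313 in EACBE+/+ (SD, n = 2 each), and the genotypes overlapped.

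The EACBE-/- and EACBE+/+ libraries thus overlapped for 5 of 5 members, beside 14.3% of all 21 segments whose libraries did not overlap. A fit of EACBE-/- against EACBE+/+ over all 21 segments (edgeR's quasi-likelihood test on counts per segment with the table totals as library sizes) called 0 of 21 segments (0%) at a Benjamini-Hochberg adjusted p of 0.05, and 0 had an unadjusted p below 0.05. DESeq2 also called 0, and 0 at its unadjusted p. On the log2 scale of EACBE-/- over EACBE+/+, the difference was -0.02 for Trbv12-1 (95% interval -0.52 to 0.48), 0.01 for Trbv12-2 (-0.38 to 0.40), -0.04 for Trbv13-1 (-0.47 to 0.39), -0.04 for Trbv13-2 (-0.50 to 0.43) and -0.02 for Trbv13-3 (-0.41 to 0.36). Each had an adjusted p of 0.970 in that edgeR fit. The median over the members was -0.02, and over all 21 segments 0.01. Leaving out any 1 of the 4 libraries turned the direction for at least 1 member, with ranges of -0.32 to 0.34 for Trbv12-1, -0.11 to 0.15 for Trbv12-2, -0.13 to 0.04 for Trbv13-1, -0.20 to 0.13 for Trbv13-2 and -0.09 to 0.05 for Trbv13-3. The interval of Trbv12-1 is the widest, and a change smaller than about its bounds was not detectable with these libraries.

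Near-identical copies can share reads, and the labels do not say how the authors' segment caller divided reads that match more than 1 copy. Values for a single copy are uncertain for that reason. A sum over copies does not depend on how reads are divided among these copies, but it would change if such reads were dropped or counted more than once. With the copies of each family summed before the fit, the log2 difference of EACBE-/- over EACBE+/+ was -0.01 for Trbv12 (95% interval -0.42 to 0.40) and -0.03 for Trbv13 (-0.43 to 0.36), each with an adjusted p of 0.974 by edgeR's quasi-likelihood test, and 0 of 18 summed or single segments were called.

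Over both genotypes the mean shares ordered the members as Trbv13-2, Trbv13-1, Trbv12-1, Trbv13-3 and Trbv12-2. Trbv13-2 exceeded Trbv13-1 in 3 of 4 libraries, with count ratios of 1.04 and 1.15 in EACBE-/- and 0.971 and 1.22 in EACBE+/+. Trbv13-1 exceeded Trbv12-1 in 2 of 4 libraries, so neither of these neighbours was separated from the next beyond the spread. Trbv12-1 exceeded Trbv13-3 in 4 of 4 libraries by ratios of 1.73 and 1.39 in EACBE-/- and 2.01 and 1.16 in EACBE+/+. Trbv13-3 exceeded Trbv12-2 in 4 of 4 by 1.08 and 1.09 in EACBE-/- and 1.16 and 1.07 in EACBE+/+. A two-sided exact sign-flip permutation test over the 4 libraries gave p = 0.25, 0.5, 0.125 and 0.125 for these neighbours in that order (adjusted over the 4 pairs 0.333, 0.5, 0.25 and 0.25), and 0.125 is the smallest p that 4 libraries allow. Per 100 annotated bases, since the members are 433 to 501 bases long, the order stayed the same, and Trbv13-1 then exceeded Trbv12-1 in 4 of 4 libraries. Dividing by length rescales each ratio by a fixed factor, and RACE counts need not scale with annotated length. Trbv13-2 ranked 2 of the 21 segments in both EACBE-/- libraries, and 4 and 2 in EACBE+/+ replicates 1 and 2. Trbv13-3 ranked 9 or 10, and Trbv12-2 between 11 and 13.

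All members joined to all 11 Trbj segments in every library, and their Trbj profiles had a common outline. Trbj2-7, the last segment of the Trbj2 cluster, was the most used partner in 19 of the 20 combinations of member and library, with shares of the segment's own counts between 13.3% and 19.7%. The exception was Trbv12-2 in EACBE+/+ replicate 1, where Trbj2-5 led with 16.1% and Trbj2-7 held 14.1%. Trbj1-5, the last listed segment of the Trbj1 cluster, was the least used partner in all 20 combinations. The next most used partner separated the members: Trbj2-1 came second for Trbv12-1 in 4 of 4 libraries, and Trbj2-5 was second for Trbv13-2 in 4 of 4 and second or first for Trbv12-2.

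**Figure D2:**
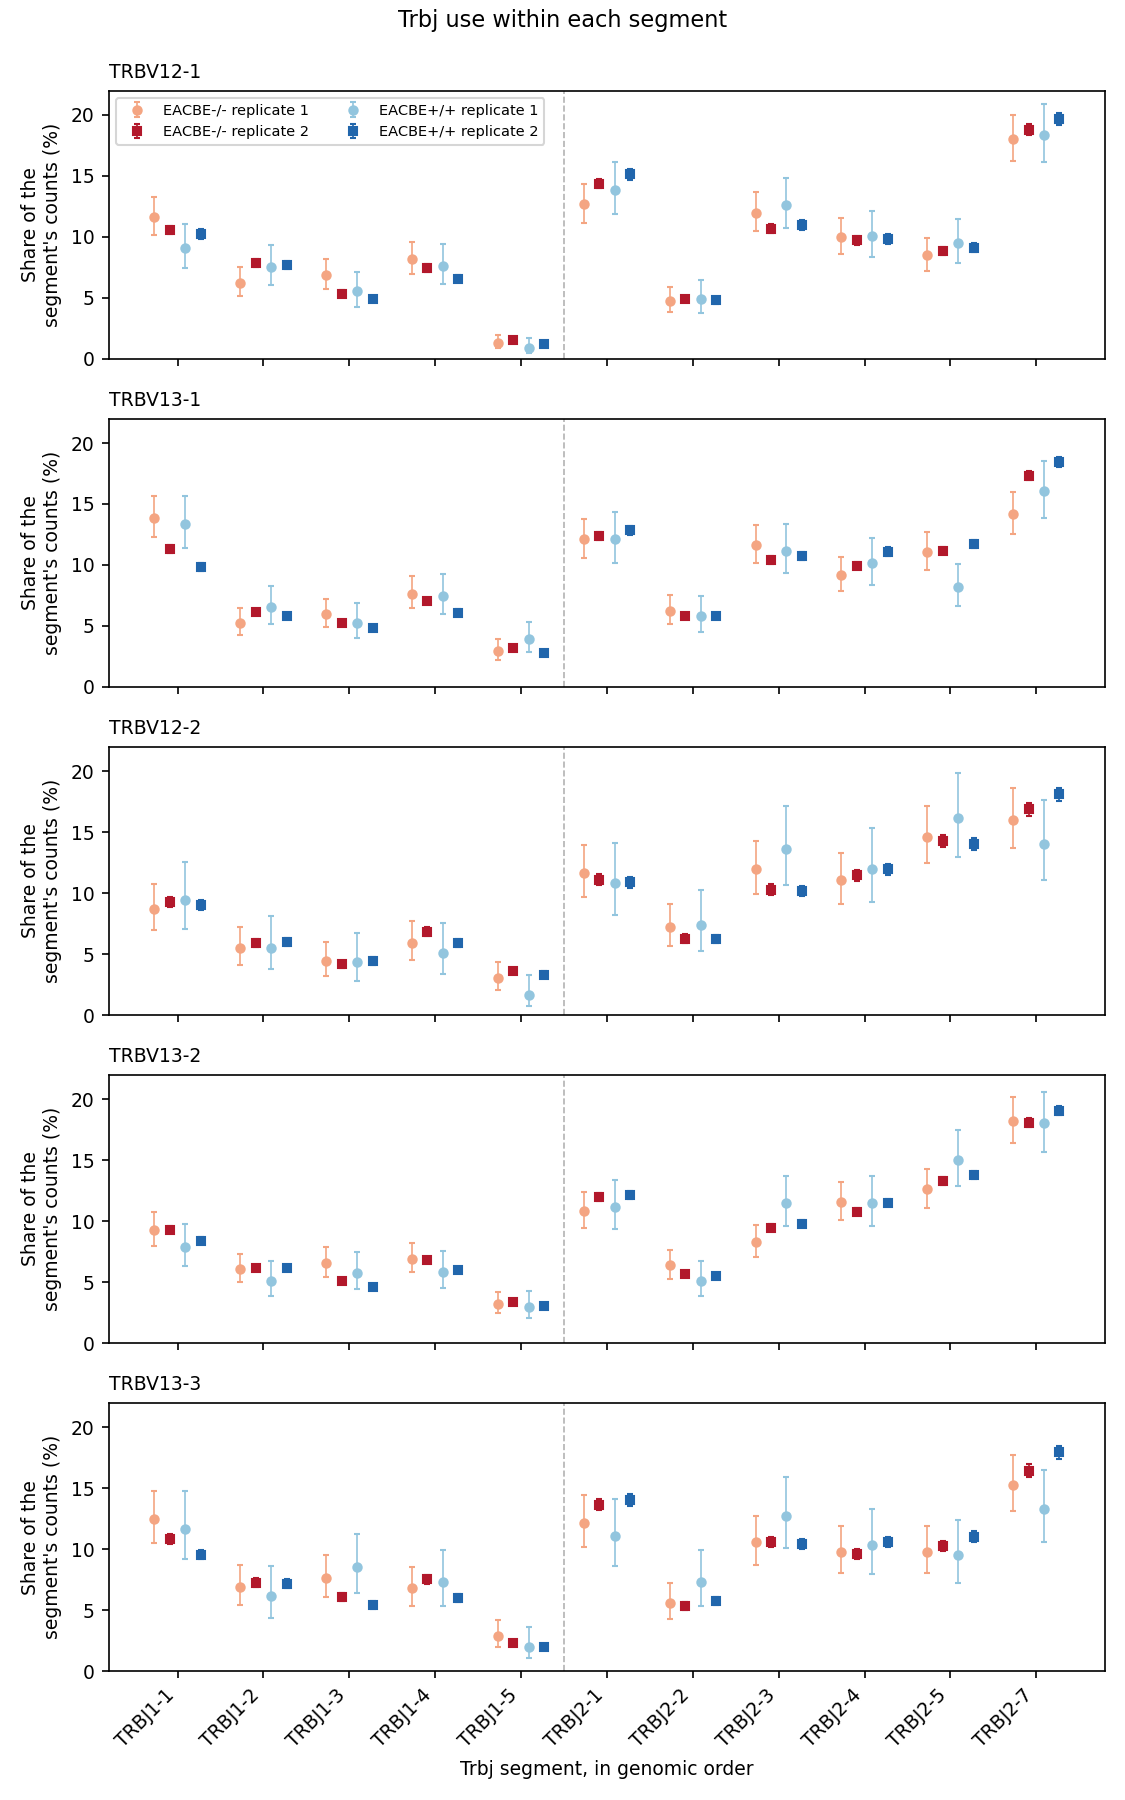
Share of a segment's own counts (y axis, %) joined to each of the 11 listed Trbj segments (x axis, Trbj1 left and Trbj2 right of the dashed line), with 1 panel per Trbv12 or Trbv13 segment. Red points are EACBE-/- and blue points EACBE+/+, circles replicate 1 and squares replicate 2, and error bars 95% Wilson intervals; TRBJ2-7 is highest in nearly every profile and TRBJ1-5 lowest in each, and the TRBJ1-5 points of TRBV12-1 lie at 0.889% to 1.54%.

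The profile of each member was then set against that of all other Trbv segments of the same library, with the library as a block and the totals of the segment and of the others as offsets (edgeR's quasi-likelihood test over 231 pairs of Trbv and Trbj). This contrast does not involve genotype. Of the 55 member pairs, 41 passed an adjusted p of 0.05, or 74.5%, with 21 higher and 20 lower than in the other segments. Among all 231 pairs, 71% passed, with 35.9% higher and 35.1% lower, so the members' share of calls was near that of Trbv segments in general. The log2 ratio had the same sign in all 4 libraries for 37 of 55 member pairs (67.3%), against 51.9% of all pairs. The fit estimates its spread from the libraries and shares 1 value over all pairs. Its p-values can therefore be too small for pairs that vary more between libraries than that. Reads of amplified transcripts also need not be independent molecules. Without EACBE-/- replicate 2 the calls over all pairs were 98, and without EACBE+/+ replicate 2 they were also 98, against 164 with all libraries.

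The largest difference of Trbv12-1 from the other segments was in its joins to Trbj1-5, which were sparse. Trbj1-5 made up 1.31% and 1.54% of Trbv12-1 counts in EACBE-/- libraries, against 0.889% and 1.19% in EACBE+/+ libraries. In the other segments of the same libraries it made up 3.05% and 3.11% in EACBE-/- and 2.90% and 2.78% in EACBE+/+. The log2 difference of Trbv12-1 from the others was -1.11 ± 0.0468 (SE; adjusted p = 5.12e-90, edgeR), with the same sign in 4 of 4 libraries and a range of -1.24 to -1.04 when each library was left out. The replicate 1 values rest on only 21 counts in EACBE-/- and 9 counts in EACBE+/+, with intervals of 0.858% to 1.99% and 0.469% to 1.68%. Trbv12-1 also joined less to Trbj2-5 (log2 difference -0.49 ± 0.0285, SE) and more to Trbj1-2 (0.50 ± 0.0199, SE), both in 4 of 4 libraries. Of its 11 Trbj segments, 10 passed the test. Low Trbj1-5 use was not limited to Trbv12-1: the log2 difference from the other segments was -1.28 ± 0.0577 for Trbv17 and -1.18 ± 0.212 for Trbv30 (SE), segments outside the cluster.

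Trbv12-2 did not share this pattern. Trbj1-5 made up 3.02% and 3.59% of its counts in EACBE-/- libraries, against 1.61% and 3.33% in EACBE+/+ libraries. Relative to the other segments its Trbj1-5 use was higher, with a log2 difference of 0.28 ± 0.0411 (SE; edgeR's adjusted p = 8.04e-11), but EACBE+/+ replicate 1, with 7 counts, stood at -0.78. Trbv12-2 joined more to Trbj2-5 than the other segments did (14.6% and 14.3% in EACBE-/-, 16.1% and 14.0% in EACBE+/+; log2 difference 0.21) and less to Trbj2-1 (-0.22), each in 4 of 4 libraries. It passed the test for 8 of 11 Trbj segments.

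Among the Trbv13 segments, Trbv13-1 had the fewest Trbj segments that set it apart from the rest of the locus. For Trbv13-1, 6 of 11 Trbj segments passed, and the 3 with the largest differences were Trbj2-5 at -0.14, Trbj1-2 at 0.11 and Trbj1-1 at 0.10 on the log2 scale (SE 0.0254, 0.0186 and 0.0266 in that order). Trbj2-5 made up 11.0% and 11.2% of Trbv13-1 counts in EACBE-/- libraries, against 8.18% and 11.7% in EACBE+/+ libraries. Without EACBE-/- replicate 2 the calls of Trbj1-1 and Trbj1-2 for Trbv13-1 were lost, and without EACBE+/+ replicate 2 that of Trbj2-5 was lost.

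Trbv13-2 passed for 10 of 11 Trbj segments, led by less use of Trbj1-1 (9.27% and 9.32% in EACBE-/-, 7.89% and 8.42% in EACBE+/+; log2 difference from the others -0.22 ± 0.0266, SE, lower in 4 of 4 libraries). It used Trbj1-5 more, at 3.25% and 3.37% in EACBE-/- and 2.99% and 3.02% in EACBE+/+ (0.19 ± 0.0292 on the log2 scale, SE, in 4 of 4 libraries). Its Trbj1-2 use was higher by 0.16, in 3 of 4 libraries.

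Trbv13-3 passed for 7 of 11 Trbj segments and used Trbj1-2 more than the other segments did, at 6.90% and 7.28% in EACBE-/- and 6.15% and 7.17% in EACBE+/+ (0.39 ± 0.0238 on the log2 scale, SE, in 4 of 4 libraries). Trbj1-3 was also higher, by 0.27 in 4 of 4. Trbj1-5 was lower (log2 difference -0.41), although in EACBE-/- replicate 1 Trbv13-3 and the other segments both stood at 2.91%. Trbj1-5 use thus passed the test for all 5 members, below the other segments in Trbv12-1 and Trbv13-3 and above them in Trbv12-2, Trbv13-2 and Trbv13-1 (log2 difference 0.08 ± 0.0318 for Trbv13-1, SE, higher in 4 of 4 libraries).

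**Figure D3:**
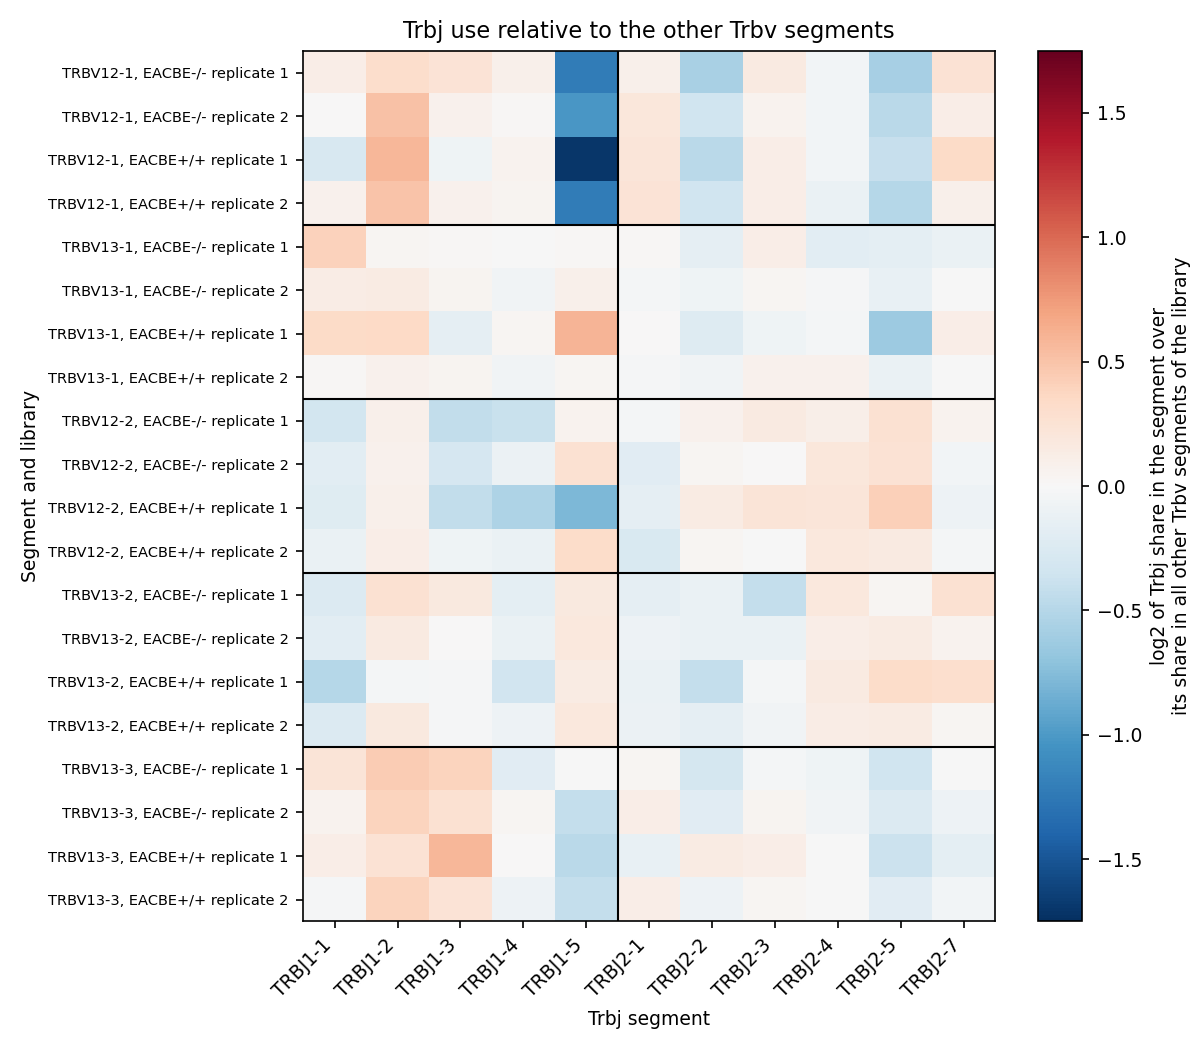
log2 of the Trbj share in a Trbv12 or Trbv13 segment over its share in all other Trbv segments of the same library (colour, red higher and blue lower), with 1 row per segment and library and 1 column per Trbj segment. The TRBJ1-5 column of TRBV12-1 is the darkest blue, at -1.22 and -1.01 in EACBE-/- and -1.71 and -1.22 in EACBE+/+. In TRBV12-2 that column stands at 0.06 and 0.27 in EACBE-/- and at -0.78 and 0.32 in EACBE+/+ (replicates 1 and 2).

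The Trbj profiles of the Trbv12 pair lay farther apart than those of any Trbv13 pair. A distance between profiles was taken as the share of counts that would have to move to another Trbj to make the profiles equal, in percentage points, on profiles averaged over the 4 libraries. Trbv12-1 and Trbv12-2 lay 11.1 points apart, and 11.4 and 10.6 points in the EACBE-/- libraries and 13 and 10.6 points in the EACBE+/+ libraries (replicates 1 and 2). In each library this exceeded the distance of every Trbv13 pair. On averaged profiles, Trbv13-1 and Trbv13-3 were 3.11 points apart, Trbv13-1 and Trbv13-2 6.42 points and Trbv13-2 and Trbv13-3 8.20 points. Trbv13-1 lay 9.91 and 3.89 points from Trbv13-2 in EACBE-/- and 11.0 and 3.68 points in EACBE+/+, and 5.16 and 3.90 points from Trbv13-3 in EACBE-/- and 7.83 and 3.17 points in EACBE+/+. The distances were larger in the shallow replicate 1 libraries, and in EACBE-/- replicate 2 Trbv13-1 was as near to Trbv13-2 as to Trbv13-3. Across families, Trbv12-2 lay 4.57 points from Trbv13-2, its next segment downstream, and Trbv12-1 lay 5.69 points from Trbv13-3. Trbv12-1 lay 6.53 points from Trbv13-1, its own next segment downstream, and 8.90 points from Trbv13-2. Trbv12-2 lay 7.13 points from Trbv13-1, its next segment upstream (13.8 points in EACBE+/+ replicate 1), and 8.40 points from Trbv13-3. For comparison, the median was 7.64 points over the 120 pairs of segments outside the cluster, and 7.16 points over the 80 pairs of a member with another segment.

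Outside the cluster, the profiles nearest to a member's over the 4 libraries were those of Trbv26 (6.17 points) and Trbv24 (6.65) for Trbv12-1, and of Trbv4 (4.12) and Trbv2 (4.38) for Trbv12-2. For Trbv13-1 they were Trbv26 (4.14) and Trbv19 (4.84), for Trbv13-2 Trbv4 (3.41) and Trbv1 (3.75), and for Trbv13-3 Trbv26 (3.10) and Trbv19 (3.84). These averages give the shallow replicate 1 libraries the same weight as the deep ones, and the nearest segment was not the same in every library. For Trbv13-1 the nearest outside the 5 members was Trbv1 in EACBE-/- replicate 2 and Trbv3 in EACBE+/+ replicate 2. Trbv24 lay 16.1 and 4.62 points from Trbv12-1 in EACBE-/- and 18.7 and 7.23 points in EACBE+/+ (replicates 1 and 2). In replicate 1 it had only 90 counts in EACBE-/- and 44 in EACBE+/+.

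Each Trbj was also tested between each pair of segments by edgeR's quasi-likelihood test over all 2310 combinations, a test added after the data had been seen. Of all combinations, 67.2% passed, with a median of 8 of 11 Trbj segments per pair of segments. The same counts enter many of these combinations, which the test treated as independent with 1 shared spread. Its SEs can therefore be too small and its calls too many. For Trbv12-1 against Trbv12-2, 10 of 11 passed, with less Trbj1-5 and Trbj2-5 in Trbv12-1 (log2 differences of -1.33 ± 0.0845 and -0.66 ± 0.0359, SE) and more Trbj2-1 (0.41 ± 0.0364, SE). For Trbv13-1, 4 of 11 passed against Trbv13-2 and 5 of 11 against Trbv13-3, and for Trbv13-2 against Trbv13-3 9 of 11 passed. For Trbv12-2 against Trbv13-2, 5 of 11 passed.

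Profiles of shallow libraries lie farther apart through counting error alone, so all 20 profiles were also thinned to 434 counts, the smallest total of a member, in 100 draws. At that depth a member's profile in EACBE-/- and in EACBE+/+ differed by 7.85 points in replicate 1 and 8.67 points in replicate 2 on average. Replicates of 1 genotype differed by 8.63 points in EACBE-/- and 9.78 points in EACBE+/+. The profiles of different members in 1 library differed by 10.6 points on average, and those of Trbv12-1 and Trbv12-2 by 13 to 13.5 points in the 4 libraries. Without thinning, the genotypes differed by 5.35 points in replicate 1 and 2.93 points in replicate 2, and replicates by 4.3 points in EACBE-/- and 6.72 points in EACBE+/+. Thinning itself thus added most of the distance between the deep libraries, and the thinned values do not show whether genotypes and replicates lay equally far apart.

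**Figure D4:**
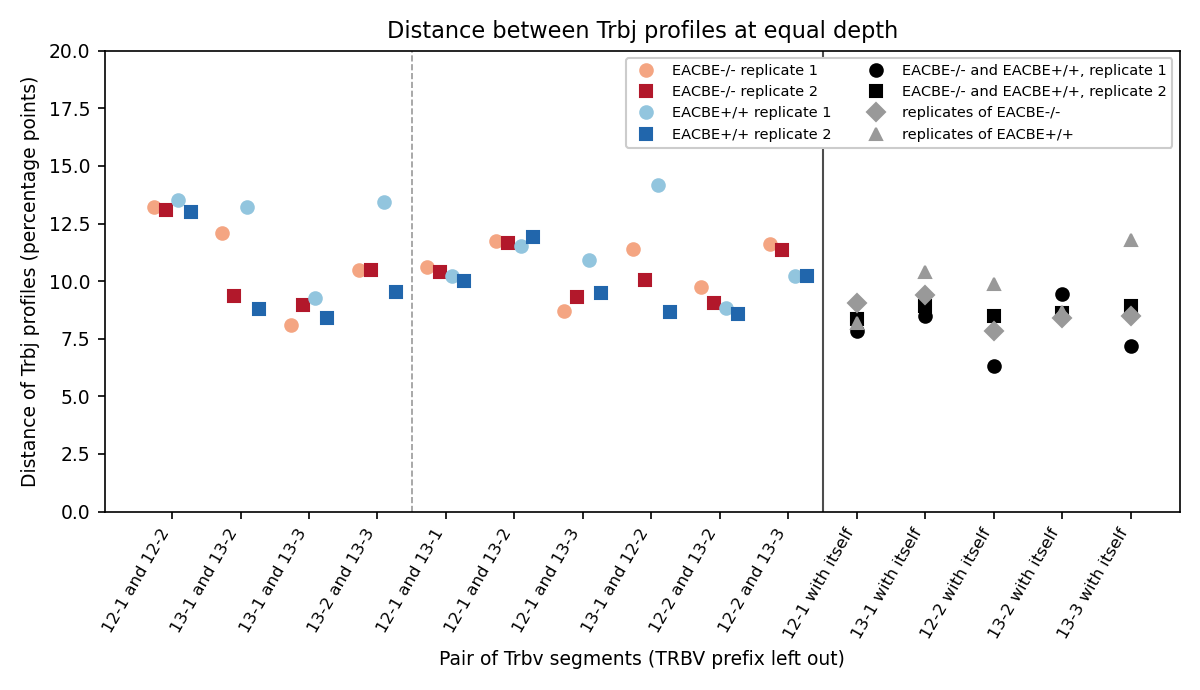
Distance between Trbj profiles (y axis, percentage points) with every profile thinned to 434 counts, averaged over 100 draws, for each pair of Trbv12 and Trbv13 segments in each library (left of the solid line, coloured by library, copies of one family left of the dashed line) and for each segment set against itself between genotypes (black) or between replicates (grey). TRBV12-1 and TRBV12-2 lie 13 to 13.5 points apart in all 4 libraries, and the black points span 6.32 to 9.43 points, against 7.83 to 11.8 points for the grey points.

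For the use of a Trbj within a segment, EACBE-/- was next set against EACBE+/+ with the total of the segment in each library as offset, so that a change in the segment's own share drops out. No pair was called by edgeR's quasi-likelihood test without a replicate block: 0 of 231 (0%) passed the adjusted p of 0.05, among them 0 of 55 member pairs. An unadjusted p below 0.05 was found for 3 of 231, 1 of them a member pair. With the replicate number as a block, some pairs were called, Trbj1-4 of members among them, as given in the closing section. DESeq2 called 0, and 0 at its unadjusted p. A fit of the counts per pair against the table totals also called 0 of 231 pairs (0%), with 0 at an unadjusted p below 0.05 by edgeR and by DESeq2. The member pair with the unadjusted p was Trbv12-1 with Trbj1-5, with a log2 difference of 0.37 (SE 0.178, 95% interval 0.02 to 0.72, adjusted p = 0.993 by edgeR). Its shares of 1.31% and 1.54% in EACBE-/- and 0.889% and 1.19% in EACBE+/+ do not overlap, but the counting intervals in replicate 1 do.

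For the other members the lowest p belonged to Trbj1-4 in each case. Trbj1-4 made up 7.65% and 7.07% of Trbv13-1 counts in EACBE-/- libraries, against 7.45% and 6.10% in EACBE+/+ libraries. In Trbv12-2 it made up 5.92% and 6.82% in EACBE-/-, against 5.07% and 5.87% in EACBE+/+. For Trbv13-2 the values were 6.92% and 6.79% in EACBE-/-, against 5.86% and 6.01% in EACBE+/+, which do not overlap. Trbv13-3 had 6.79% and 7.53% in EACBE-/-, against 7.34% and 5.98% in EACBE+/+. The log2 differences were 0.18 for Trbv13-1, 0.20 for Trbv12-2, 0.19 for Trbv13-2 and 0.25 for Trbv13-3. Each had an adjusted p of 0.993 by edgeR's quasi-likelihood test without a replicate block. Without EACBE+/+ replicate 2 the value for Trbv13-1 was -0.05. The mean Trbj1-4 share was higher in EACBE-/- for 5 of 5 members and for 13 of the 16 other segments, and the mean Trbj2-4 share was lower in EACBE-/- for 5 of 5 members, and higher for 6 of the 16 others.

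In 17 of the 55 member pairs (30.9%) the EACBE-/- and EACBE+/+ shares did not overlap, 10 with EACBE-/- higher and 7 with EACBE-/- lower. Over all 231 pairs this was so for 26.8%, so the members were near the background. Trbv13-2 had 6 such Trbj segments, Trbv13-1 had 2 and each of the other members 3.

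Summed over the clusters, the share of joins to Trbj1 was higher on average in EACBE-/- for all 5 members, by 1.27 to 3.47 percentage points, and for 12 of the 16 other segments. Trbv12-1 had Trbj1 shares of 34.2% and 32.7% in EACBE-/- libraries, against 30.6% and 30.5% in EACBE+/+ libraries. Trbv13-2 had 32.1% and 30.7% in EACBE-/-, against 27.6% and 28.3% in EACBE+/+. In these segments the genotypes did not overlap, which was so for 2 of 5 members, against 33.3% of all 21 segments. Trbv12-2 had the lowest Trbj1 share of the members in 3 of 4 libraries, at 27.5% and 29.7% in EACBE-/- and 26.0% and 28.7% in EACBE+/+.

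The remaining Trbv13 segments overlapped between genotypes. Trbv13-1 had Trbj1 shares of 35.7% and 33.0% in EACBE-/-, against 36.5% and 29.3% in EACBE+/+, so EACBE-/- was lower in replicate 1 and higher in replicate 2. Trbv13-3 had 36.7% and 34.0% in EACBE-/-, against 35.7% and 30.2% in EACBE+/+. Over the 5 members the Trbj1 share was 33.5% and 32.0% in EACBE-/-, against 31.5% and 29.2% in EACBE+/+, a difference of the means of 2.38 points. In the remaining segments it was 31.9% and 31.3% in EACBE-/-, against 32.1% and 28.9% in EACBE+/+. A sum over the members got no test, and 2 libraries against 2 cannot reach a two-sided exact permutation p below 0.333. Leaving out EACBE+/+ replicate 2 turned the difference of Trbv13-1 to -2.20 points, and took that of Trbv13-3 to -0.328 points, and without EACBE+/+ replicate 1 that of Trbv12-2 was -0.0473 points.

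**Figure D5:**
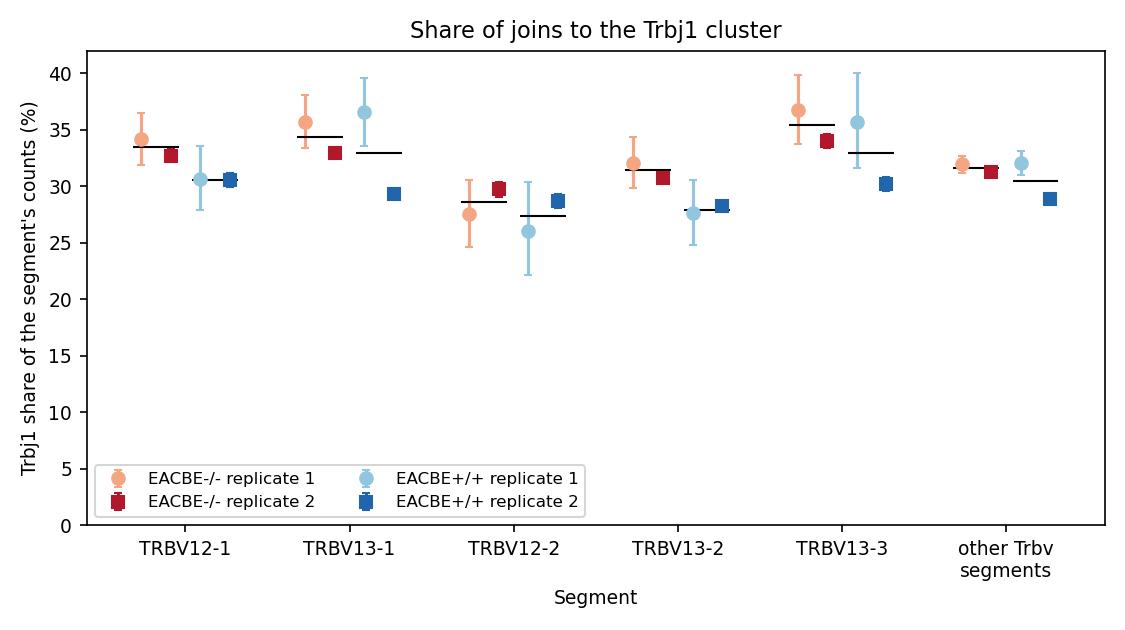
Share of a segment's counts joined to the Trbj1 cluster (y axis, %) for each Trbv12 and Trbv13 segment and for the other Trbv segments summed (x axis), with EACBE-/- in red and EACBE+/+ in blue, circles for replicate 1, squares for replicate 2, 95% Wilson intervals as error bars and genotype means as horizontal lines. The red mean is above the blue mean in every segment, and the libraries of the genotypes are separate in TRBV12-1 and TRBV13-2 only.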

How the data were processed

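The authors deposited 1 table of whole-number counts per library, with Trbv against Trbj segments. Per the labels' protocols, thymocyte RNA was reverse transcribed with a template-switching adapter for 5′ RACE. The sources used here give neither the tool that assigned segments nor the meaning of 1 count (1 read, or 1 receptor sequence). If it is a read, abundant transcripts carry more weight than rare ones. The submitters' processing notes name mm10, Juicer 1.13.02, HiC-Pro 2.11.1, bedtools 2.26.0, Bowtie2 2.3.4.3, Bowtie2 2.20.8 and cutadapt 0.4.4, and no step for any of them. The 33 Trbv and Trbj symbols all matched the RefSeq table of GRCm38.p6. The other repertoire, chromatin and conformation libraries were not used here, nor were sequences of the segments.

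Groups came from the genotype labels. From the deposited counts, shares, 95% Wilson intervals and profile distances were computed with Python 3.11.15, numpy 2.4.6, scipy 1.17.1 and pandas 2.3.3, and figures drawn with matplotlib 3.10.9. Tests used edgeR 4.0.16 in R 4.3.3 (glmQLFit and glmQLFTest, library sizes set to the table totals without TMM factors, filterByExpr at its default minimum count of 10 and minimum total of 15, Benjamini-Hochberg adjustment over all features of a fit, threshold 0.05). Trbv31, listed in 2 of the 4 tables, stayed in the totals and out of the tests. Simulated counts were used to test the fits of segment use, pair use, and Trbj use within a segment or against the other segments. The fits between pairs of segments and with copies summed were not tested in that way. Alternatives were a replicate block, DESeq2 1.42.0, other scalings, no filter, leaving out libraries one at a time, copies summed, other comparison segments and thinning.

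The members, lists and tests were chosen with earlier results of these data known. All 5 members were named. For each member the text names up to 3 Trbj segments past the threshold with the largest log2 differences, or the one with the lowest p-value where none passed, and the 2 nearest other segments by mean profile. The Trbj segments and counts singled out beyond that (Trbj2-4, Trbj2-7, Trbj1-5 of Trbv13-1, Trbv17 and Trbv30, the nearest segments of single libraries, and the pair tests between members) were chosen after their values were seen. The calls with a replicate block were also named after they were seen.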

Additional observations from a re-analysis of the deposited data

How the results depend on the processing

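No member's share of counts was called between genotypes under any scaling, filter, tool or left-out library, and the differences near 0 changed sign easily. For the log2 difference of EACBE-/- over EACBE+/+, TMM factors gave -0.011 for Trbv12-2, the replicate number as a block gave 0.019 for Trbv12-1, and the block with TMM factors gave -0.019 for Trbv12-2. With each library left out, these differences ran from -0.32 to 0.34 for Trbv12-1, -0.11 to 0.15 for Trbv12-2, -0.13 to 0.041 for Trbv13-1, -0.20 to 0.13 for Trbv13-2 and -0.087 to 0.051 for Trbv13-3, and that of Trbj1-4 within Trbv13-1 from -0.050 to 0.24. The difference in the members' summed share ran from -1.52 to 0.313 percentage points, and that in their Trbj1 share from 1.24 to 3.52 points.

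Same-numbered libraries deviated together, with a correlation of 0.827 over the 21 segments and 0.360 over the 231 pairs. With only 2 pairs and no statement in the labels that a number marks a shared mouse or day, the numbers were not treated as pairing, and depth differs with them. With the replicate number as a block, edgeR called 1 of 21 segments, Trbv30, with or without TMM factors, and no member. For Trbj use within a segment the block called 22 of 231 pairs, of which 11 were among the 55 member pairs. Trbj1-4 was called in Trbv12-1, Trbv13-1, Trbv13-2 and Trbv13-3, each higher in EACBE-/-. It was also called, and higher in EACBE-/-, in Trbv1, Trbv5, Trbv15, Trbv16 and Trbv29, segments outside the cluster. Trbj1-1 was called higher in EACBE-/- in Trbv13-1, Trbv13-2 and Trbv13-3, and outside the cluster in Trbv15. Trbj2-7 was called lower in EACBE-/- in Trbv13-1 and Trbv13-3, and outside the cluster in Trbv1, Trbv5, Trbv16 and Trbv29. The remaining member calls were Trbj1-3 in Trbv13-2, higher in EACBE-/-, and Trbj2-4 in Trbv13-1, lower in EACBE-/-. The cause was not tested.

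For Trbj use against the other segments, the calls numbered 98 to 162 with each library left out and 82 with the EACBE+/+ libraries alone, which use fewer samples. At replicate 1 depth, 3 counts correspond to 0.0145% of the EACBE-/- table and 0.0263% of the EACBE+/+ table, and the scarce joins of Trbv12-1 to Trbj1-5 rest on few counts there.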
